A study of Mus musculus with 6 samples.

Results

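Small leucine-rich proteoglycans are secreted matrix proteins built around a leucine-rich repeat core, and 9 genes of the family, Dcn, Bgn, Lum, Fmod, Ogn, Omd, Aspn, Prelp and Podn, were followed here by gene symbol in a table of 55367 symbols. All 9 had counts in each of the 6 libraries and all 9 passed the filter on low counts, among 15055 genes tested. Polyadenylated RNA was sequenced from an FRC line of the mouse, where FRC stands for fibroblastic reticular cell, the fibroblast that forms the scaffold of lymph nodes. They were kept for 96 h, with a change every 48 h, in medium conditioned for 24 h by 4T1 cells (2 libraries), by 67NR cells (2 libraries) or, as control, by FRCs themselves (2 libraries). All media were plain RPMI at conditioning and were then supplemented with 2% fetal bovine serum and penicillin-streptomycin. Both tumour lines derive from mouse mammary carcinoma, and 4T1 is known to metastasise whereas 67NR is known not to. No group had unconditioned medium, so that substances added by the tumour cells, substances of FRCs that were missing and nutrients used up cannot be told apart.

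Proteoglycans of this family bind collagen fibrils as they assemble and set fibril diameter and spacing. Many carry a glycosaminoglycan chain, chondroitin or dermatan sulfate on decorin and biglycan and keratan sulfate on fibromodulin and lumican, and several bind TGF-beta. Soluble decorin and biglycan are also known as ligands of the innate receptors TLR2 and TLR4, and the title of the study names a TLR4-dependent role of fibroblasts in lymph nodes that drain tumours. Lymph node FRCs wrap conduits whose core is made of collagen fibrils.

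Libraries held 13581510 to 21797578 counts, and 1 count was worth 0.0463 to 0.0743 CPM (counts scaled to a library of 1000000). Across tested genes, log CPM of paired libraries had Pearson correlations of at least 0.992 within a medium and at most 0.979 between media. Separate cultures are not stated for the libraries of a medium, so the p-values refer to the spread of these libraries alone, which may be technical. Of 13 FRC and fibroblast markers, 8 were tested, among them Pdpn, Pdgfra and Pdgfrb. Ccl19 and Ccl21a, which mark lymph node FRCs in tissue, had no count in any library, and neither had Cxcl13 and Thy1. The sources used here do not name the annotation behind the counting, and whether these zeros belong to the cells was not tested. The summed marker level, mostly Col1a1, was 7897 and 8391 CPM in 4T1 medium, 16618 and 15805 CPM in 67NR medium and 14968 and 14379.9 CPM in control medium. Summed markers of leukocytes (8 genes, 4 at 0, Cd3e among them) reached at most 10.1 CPM, those of endothelium (6 genes, Prox1 at 0) 3.15 CPM, those of epithelium (8 genes, Epcam at 0) 8.98 CPM and those of mural cells (6 genes) 19.4 CPM, and each of these sums was lowest in the 4T1 libraries. Summed markers of cartilage, bone and tendon (10 genes, Acan at 0, Sox9 the largest part) lay between 177 and 202 CPM in every library. The even sum holds opposite changes. Against control medium Sox9 rose (log2 0.47 in 4T1 and 0.44 in 67NR medium) and Col2a1 fell (log2 -0.93 in 4T1 and -1.69 in 67NR medium). Mitochondrial transcripts took 2.11 and 2.37% of counts in 4T1 medium, 1.96 and 2.28% in 67NR medium and 1.32 and 1.87% in control medium, and their part in the differences below was not tested.

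The family split in 4T1 medium. Decorin, biglycan and podocan rose against control medium, while fibromodulin, osteoglycin, osteomodulin and asporin fell, and lumican and Prelp did not pass. Of the 9 genes 7 passed, where 39.1% of all tested genes did. Of them 3 were higher, where 19.9% of all tested genes were, and 4 were lower, where 19.2% of all tested genes were (edgeR quasi-likelihood, Benjamini-Hochberg adjusted p under 0.05). In 67NR medium 8 of 9 genes were higher than in control medium, where 13.0% of all tested genes were, and 0 lower, where 14.6% were (27.6% in either direction). The median log2 fold change of the 9 genes was 0.11 for 4T1 against control and 0.70 for 67NR against control, beside medians over all tested genes of 0.01 and 0.00 in these comparisons. Between the tumour media all 9 genes passed, where 43.4% of all tested genes did, 3 of them higher in 4T1 medium (23.5% of all tested genes) and 6 lower (19.9%), with a median of -1.95 beside 0.03 over all genes. Both tumour media were set against the same control libraries, so their fold changes are not independent of each other. Libraries of the media compared did not overlap for 7, 9 and 9 of the 9 genes in these 3 comparisons, and for 67.4, 67.6 and 70.1% of all tested genes. In bulk RNA, fewer cells that express a gene and less of its RNA per cell cannot be told apart.

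**Figure D1:**
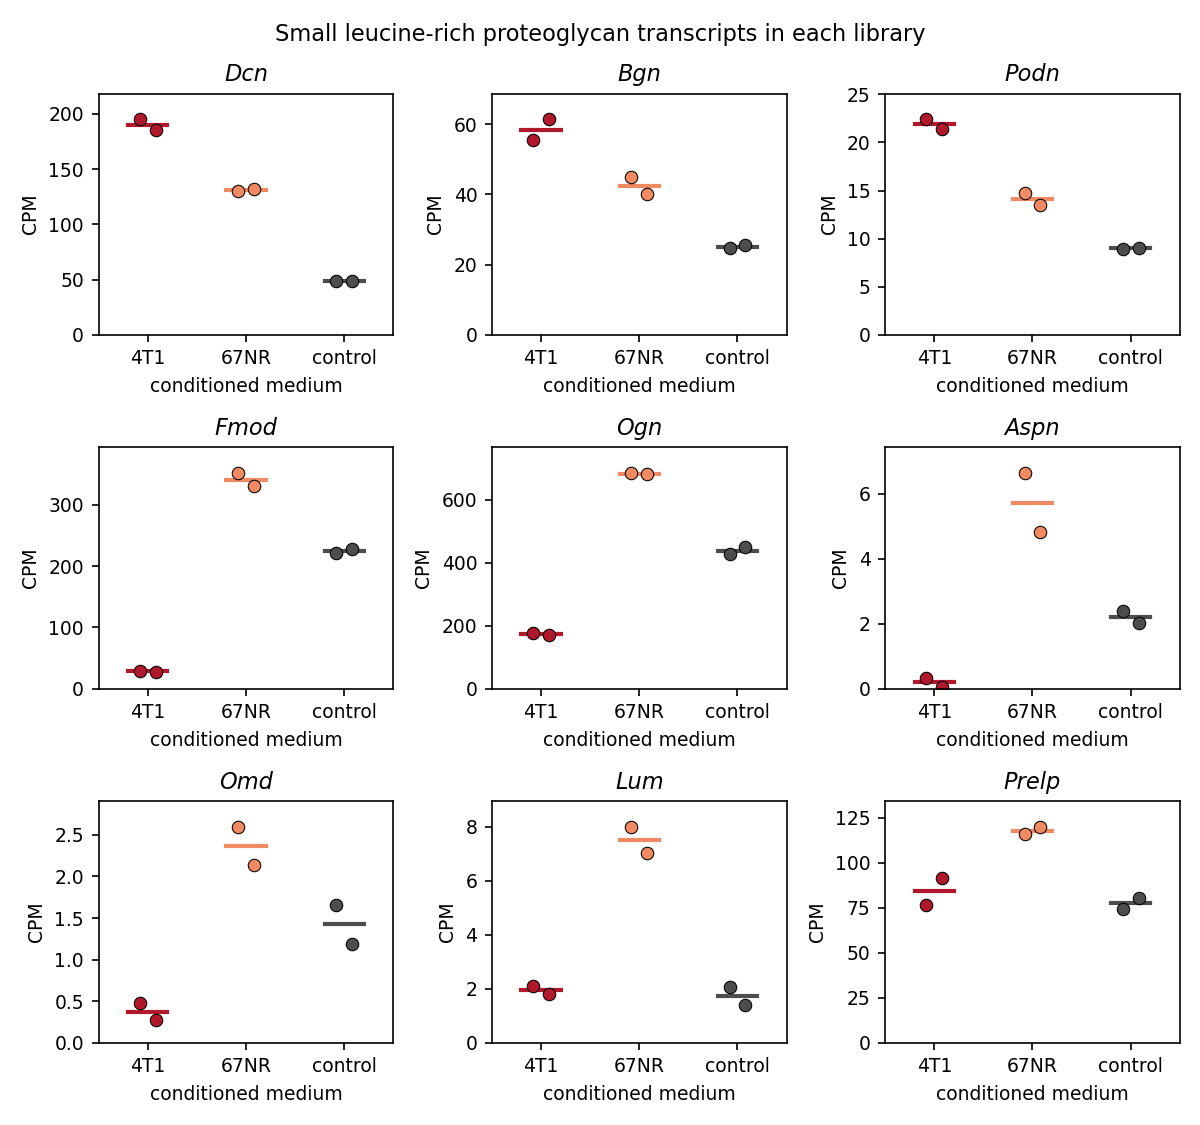
Each panel shows CPM of 1 gene (linear axis from 0) in the 2 libraries of 4T1, 67NR and control medium, with points for libraries and a bar for their mean. Dcn, Bgn and Podn are highest in 4T1 medium, whereas Fmod, Ogn, Aspn and Omd are lowest there and highest in 67NR medium.

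Decorin (Dcn, GRCm38 chromosome 10, 97479609 to 97518143, plus strand) limits the lateral growth of collagen fibrils and binds TGF-beta. Its transcript reached 195 and 185 CPM in 4T1 medium, 129.8 and 132 CPM in 67NR medium and 48.3 and 48.9 CPM in control medium. The 3 media formed separate steps, with 4T1 on top. The rise was 3.92-fold for 4T1 against control (log2 1.97, SE 0.07, edgeR quasi-likelihood adjusted p = 1.72e-10) and 2.70-fold for 67NR against control (log2 1.43, SE 0.07, adjusted p = 3.58e-08). The step of 4T1 above 67NR medium was smaller but passed as well (log2 0.54, SE 0.06, adjusted p = 1.44e-05).

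Biglycan (Bgn, chromosome X, 73483602 to 73495933, plus strand), the closest relative of decorin and a known TLR2 and TLR4 ligand when released from matrix, followed the same order. It stood at 55.6 and 61.4 CPM in 4T1 medium, 44.9 and 40.1 CPM in 67NR medium and 24.7 and 25.6 CPM in control medium, without overlap between media. Biglycan was 2.33-fold higher in 4T1 than in control medium (log2 1.22, SE 0.09, edgeR adjusted p = 2.39e-07) and 1.69-fold higher in 67NR than in control medium (log2 0.76, SE 0.09, adjusted p = 4.29e-05). The difference of 4T1 from 67NR medium was 0.46 on the log2 scale (SE 0.08, adjusted p = 0.000549).

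Podocan (Podn, chromosome 4, 108014791 to 108096445, minus strand), the member of the non-canonical class V, binds collagen and is known to restrain smooth muscle growth. Its level was 22.4 and 21.4 CPM in 4T1 medium, 14.7 and 13.5 CPM in 67NR medium and 8.93 and 9.07 CPM in control medium. The order was again 4T1, 67NR and control, with no overlap. The log2 fold changes were 1.28 for 4T1 against control (SE 0.11, edgeR adjusted p = 1.09e-06), 0.65 for 67NR against control (SE 0.11, adjusted p = 9e-04) and 0.63 for 4T1 against 67NR (SE 0.10, adjusted p = 0.000188). The annotated gene runs over Scp2 on the same strand, without exonic overlap.

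Asporin (Aspn, chromosome 13, 49544443 to 49567565, plus strand) belongs to class I with decorin and biglycan, lacks a glycosaminoglycan chain and binds TGF-beta. Its counts were 5 and 1 in 4T1 medium, 143 and 99 in 67NR medium and 46 and 27 in control medium. These counts correspond to 0.338 and 0.0545 CPM in 4T1 medium, 6.62 and 4.82 CPM in 67NR medium and 2.39 and 2.01 CPM in control medium. Asporin was thus hardly detected in 4T1 medium, where its class relatives decorin and biglycan were highest. It was lower in 4T1 than in control medium (log2 -3.57, SE 0.53, edgeR adjusted p = 0.000146) and higher in 67NR than in control medium (log2 1.36, SE 0.26, adjusted p = 0.00186). The size of the fall rests on few counts. Without 4T1 replicate 1, which leaves 1 count, the log2 fold change was -5.20, and without 4T1 replicate 2 it was -2.70 (adjusted p = 0.00154). In alternatives that kept both libraries of each compared medium, the highest adjusted p was 0.000815 (limma-voom). The lowest was 4.65e-15, from the fit without a filter, and the next lowest 1.98e-06 (DESeq2 Wald test). Against 67NR medium asporin was lower by 4.93 on the log2 scale (SE 0.43, edgeR adjusted p = 1.01e-06). The log2 difference was -6.56 without 4T1 replicate 1 and -4.06 without 4T1 replicate 2. Over the alternatives the adjusted p was at most 3.76e-05 (limma-voom). The lowest was 1.75e-42, from the fit without a filter, and the next lowest 2.68e-12 (DESeq2 Wald test).

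Fibromodulin (Fmod, chromosome 1, 134037254 to 134048277, plus strand), a keratan sulfate proteoglycan of class II that guides fibril assembly and collagen crosslinking, was the most strongly reduced of the abundant members in 4T1 medium. It stood at 29.7 and 27.6 CPM in 4T1 medium, 351 and 330.5 CPM in 67NR medium and 222 and 227 CPM in control medium. Both 4T1 libraries were far below all others, and both 67NR libraries above all others. Fibromodulin was 7.83-fold lower in 4T1 than in control medium (log2 -2.97, SE 0.07, edgeR adjusted p = 1.1e-11) and 1.52-fold higher in 67NR than in control medium (log2 0.60, SE 0.06, adjusted p = 1.64e-05). The fold difference between the tumour media was 11.9, lower in 4T1 (log2 -3.57, SE 0.08, adjusted p = 1.81e-12).

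Osteoglycin (Ogn, chromosome 13, 49608046 to 49624501, plus strand), also called mimecan, is the class III member and had the most reads of the family in 67NR and control medium. Its level was 177 and 172 CPM in 4T1 medium, 684 and 681 CPM in 67NR medium and 427 and 451 CPM in control medium. The media did not overlap. Osteoglycin was 2.51-fold lower in 4T1 than in control medium (log2 -1.33, SE 0.06, edgeR adjusted p = 3.8e-09) and 1.56-fold higher in 67NR than in control medium (log2 0.64, SE 0.06, adjusted p = 7.09e-06). Against 67NR medium it was lower in 4T1 by 1.97 on the log2 scale (SE 0.06, adjusted p = 1.05e-10).

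Osteomodulin (Omd, chromosome 13, 49582462 to 49592822, plus strand), a keratan sulfate proteoglycan best known from bone matrix, was scarce, with 7 and 5 counts in 4T1 medium, 56 and 44 in 67NR medium and 32 and 16 in control medium. The 4T1 libraries, at 0.473 and 0.272 CPM, were below those of 67NR medium at 2.59 and 2.14 CPM and of control medium at 1.66 and 1.19 CPM. The fall in 4T1 against control medium passed (log2 -1.98, SE 0.44, edgeR adjusted p = 0.003). For 67NR against control the log2 difference was 0.70 (SE 0.30, adjusted p = 0.0988), with a 95% interval of 0.06 to 1.34 before adjustment, and it did not pass. Osteomodulin was lower in 4T1 than in 67NR medium (log2 -2.68, SE 0.39, adjusted p = 0.000101).

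Lumican (Lum, chromosome 10, 97565128 to 97572703, plus strand), a class II keratan sulfate proteoglycan known for the order of collagen in the cornea and as a partner of CD14 in the sensing of lipopolysaccharide, was also scarce. It stood at 2.10 and 1.80 CPM in 4T1 medium, 7.97 and 7.01 CPM in 67NR medium and 2.08 and 1.41 CPM in control medium. Both 67NR libraries were high, and 4T1 and control overlapped. Lumican had the largest rise of the 9 genes in 67NR against control medium, 4.17-fold (log2 2.06, SE 0.22, edgeR adjusted p = 1.43e-05). For 4T1 against control its log2 difference was 0.11 (SE 0.28, adjusted p = 0.79), with a 95% interval of -0.49 to 0.71, and against 67NR medium it was lower in 4T1 (log2 -1.95, SE 0.21, adjusted p = 7.85e-06).

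Prelp (chromosome 1, 133910304 to 133921414, minus strand), a class II protein that binds heparan sulfate and anchors basement membranes to collagen, had 76.5 and 91.8 CPM in 4T1 medium, 116 and 119.7 CPM in 67NR medium and 74.6 and 80.4 CPM in control medium. It was 1.52-fold higher in 67NR than in control medium (log2 0.61, SE 0.09, edgeR adjusted p = 0.000171) and lower in 4T1 than in 67NR medium (log2 -0.48, SE 0.08, adjusted p = 0.000455). The 4T1 and control libraries overlapped, with a log2 difference of 0.12 (SE 0.09, adjusted p = 0.286) and a 95% interval of -0.06 to 0.31. The 4T1 libraries decided that result, which was 0.24 without 4T1 replicate 1 (adjusted p = 0.0153, a pass) and -0.022 without 4T1 replicate 2 (adjusted p = 0.844), the ends of its range over all alternatives.

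**Figure D2:**
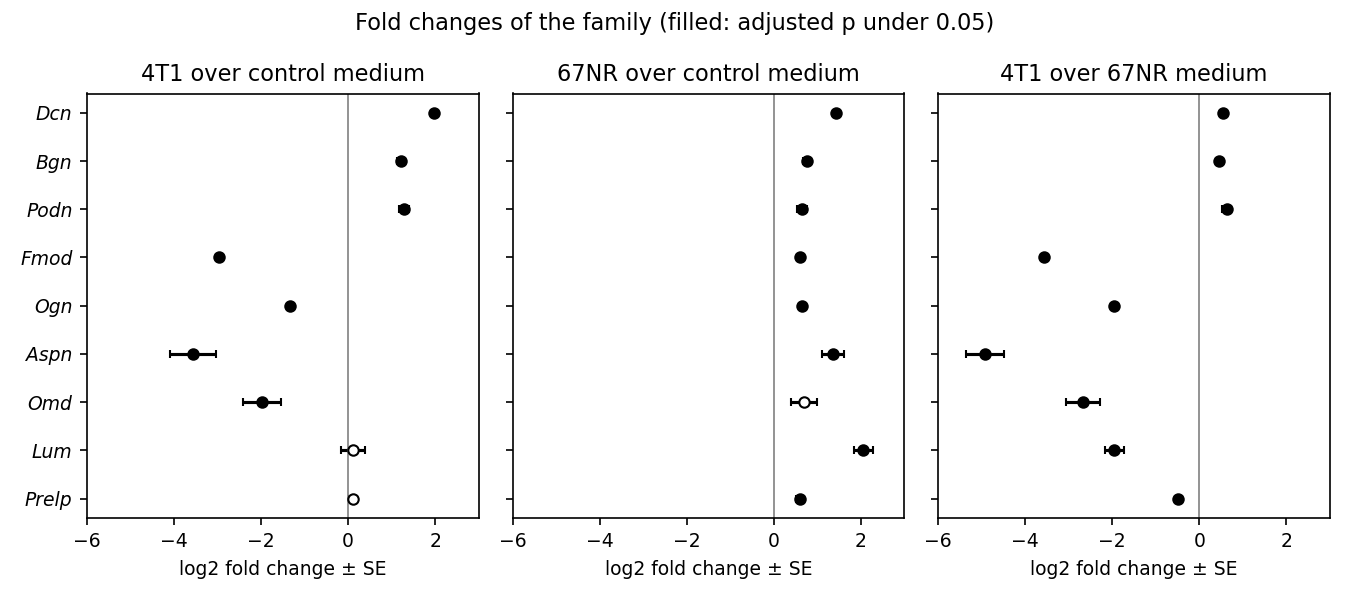
Log2 fold changes with standard errors for the 9 genes (rows) in 4T1 over control, 67NR over control and 4T1 over 67NR medium, filled where the adjusted p is under 0.05. In 67NR over control medium all 9 points lie right of 0, while in 4T1 over control medium they run between -3.57 for Aspn and 1.97 for Dcn.

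Levels of different genes were compared per kilobase (kb) of the longest principal transcript. In 4T1 medium decorin led at 108 ± 4.01 CPM per kb (mean ± SD, n = 2 here and below), ahead of osteoglycin at 68.0 ± 1.46 CPM per kb. Biglycan at 24.2 ± 1.68 and Prelp at 23.3 ± 3.0 CPM per kb came next and did not differ beyond their spread, and fibromodulin followed at 9.19 ± 0.482 CPM per kb. In 67NR medium osteoglycin led at 266 ± 0.796, ahead of fibromodulin at 109 ± 4.67, decorin at 74.5 ± 0.968 and Prelp at 32.6 ± 0.734 CPM per kb. The same order held in control medium, with osteoglycin at 171 ± 6.6 CPM per kb, fibromodulin at 71.9 ± 1.3, decorin at 27.6 ± 0.25 and Prelp at 21.4 ± 1.14 CPM per kb. Summed over the 9 genes, the level was 242 and 239.6 CPM per kb in 4T1 medium, 516 and 506 in 67NR medium and 301 and 314 in control medium. The family was thus lowest in sum in 4T1 medium. As shares of that sum, osteoglycin and fibromodulin together held 32.5 and 31.6% in 4T1 medium, 73.6 and 73.3% in 67NR medium and 78.8 and 79.1% in control medium. Decorin, biglycan and podocan together held 58.3 and 57.4% in 4T1 medium, 18.8 and 19.0% in 67NR medium and 13.5 and 13.1% in control medium. The places of decorin and biglycan depend on the length used. Annotated exons sum to 5.84 kb for decorin and 6.10 kb for biglycan, against 1.76 and 2.42 kb for the principal transcript. With merged exons decorin came second to osteoglycin in 4T1 medium, at 32.6 against 68.0 CPM per kb, and below Prelp in the other media. Biglycan then stood below Prelp in 4T1 medium, at 9.59 ± 0.667 against 23.3 ± 3.0 CPM per kb. With merged exons osteoglycin and fibromodulin together held 52.6 and 50.8% in 4T1 medium, 83.8 and 83.7% in 67NR medium and 86.1 and 86.3% in control medium. Decorin, biglycan and podocan then held 32.3 and 31.5% in 4T1 medium, 7.42 and 7.41% in 67NR medium and 5.32 and 5.19% in control medium, so that which group was the larger in 4T1 medium depends on the length. Under both lengths the share of decorin, biglycan and podocan was highest, and the summed level lowest, in the 4T1 libraries. The fold changes between media do not depend on length.

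**Figure D3:**
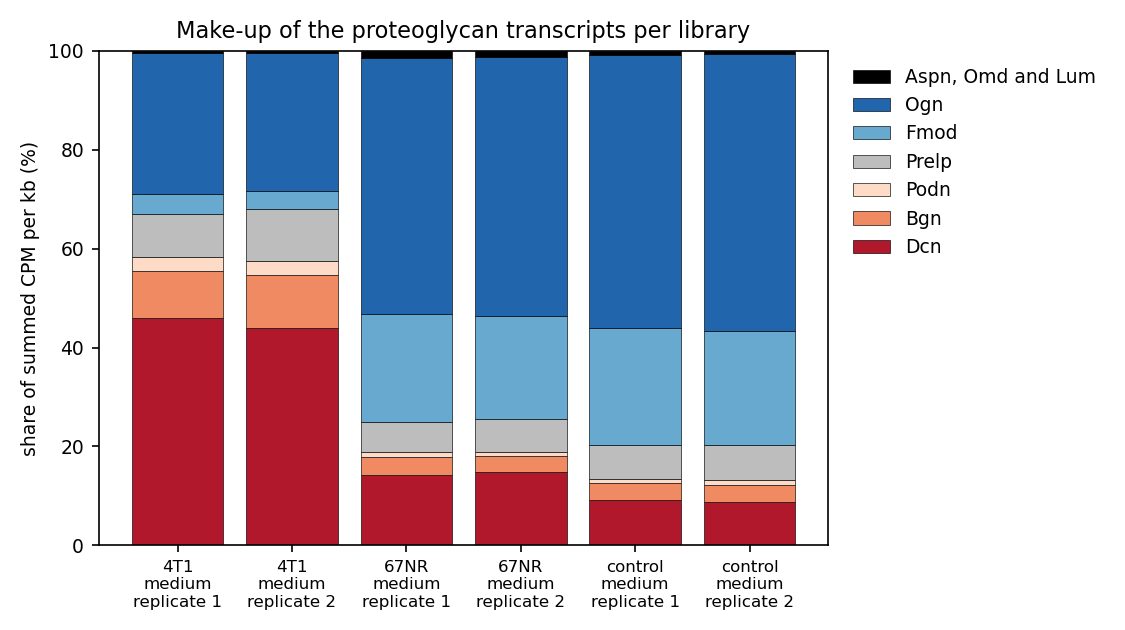
Stacked bars give each gene's share of the summed CPM per kb of the 9 genes (principal transcript lengths, 0 to 100%) in each of the 6 libraries. With these lengths decorin forms the largest block in both 4T1 libraries and osteoglycin in the other 4.

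The response was compared with position in the genome, because the family lies in clusters that arose by duplication. On chromosome 13 asporin, osteomodulin and osteoglycin follow each other at gaps of 14.9 and 15.2 kb, with a further relative, Ecm2, 11.7 kb before asporin. Asporin, osteomodulin and osteoglycin all fell in 4T1 medium, whereas Ecm2 stood at 1.69 and 2.72 CPM in 4T1 medium, 5.84 and 5.94 CPM in 67NR medium and 2.75 and 2.38 CPM in control medium and did not pass for 4T1 against control (log2 -0.20, SE 0.26, edgeR adjusted p = 0.577). On chromosome 10 decorin and lumican are 47.0 kb apart and differed in 4T1 medium, where decorin rose by 1.97 on the log2 scale and lumican was at 0.11. On chromosome 1 Prelp and fibromodulin are 115.8 kb apart with 0 protein-coding genes between them, and fibromodulin fell by 2.97 on the log2 scale in 4T1 medium while Prelp was at 0.12. The chromosome 13 genes lie within the span of Cenpp, a centromere gene on the other strand. Cenpp had 1.22 and 1.31 CPM in 4T1 medium, 1.07 and 0.973 CPM in 67NR medium and 2.80 and 3.27 CPM in control medium. The strand setting of the counting is not given in the sources used here. Exons of Cenpp overlap those of asporin by 7 bases and those of osteomodulin and osteoglycin by 0 bases.

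Start-site sequences were matched for 7 of the 9 genes, all but decorin and lumican (RefSeq, GRCm38.p6), as windows of 250 bases before and 50 bases from the start. Those of biglycan and podocan, which rose in 4T1 medium, and of fibromodulin, osteoglycin, osteomodulin and asporin, which fell, are shown so that the groups can be compared. Capitals mark matches, on either strand, to 9 motifs that were searched: a TATA box (TATAAA), a GC box (GGGCGG), a TEAD site (GGAATG), an AP-1 site (TGANTCA), a STAT site (TTCNNNGAA), a C/EBP site (TTGCNNAA), and, by their consensus, the interferon response element, the kappaB site and the CArG box.
Bgn (chrX:73483351-73483650, plus strand): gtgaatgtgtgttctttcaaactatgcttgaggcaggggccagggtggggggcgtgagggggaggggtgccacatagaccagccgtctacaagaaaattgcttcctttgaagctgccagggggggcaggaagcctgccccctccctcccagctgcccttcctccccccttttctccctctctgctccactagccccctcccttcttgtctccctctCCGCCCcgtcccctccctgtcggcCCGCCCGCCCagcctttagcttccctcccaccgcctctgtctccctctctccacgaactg
Podn (chr4:108031905-108032204, minus strand): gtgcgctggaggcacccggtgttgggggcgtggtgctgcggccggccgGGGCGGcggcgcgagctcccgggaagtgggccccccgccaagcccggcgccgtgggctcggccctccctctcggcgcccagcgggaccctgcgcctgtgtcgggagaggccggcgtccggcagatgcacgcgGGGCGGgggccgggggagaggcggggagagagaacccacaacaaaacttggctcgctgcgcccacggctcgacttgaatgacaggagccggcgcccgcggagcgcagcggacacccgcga
Fmod (chr1:134037004-134037303, plus strand): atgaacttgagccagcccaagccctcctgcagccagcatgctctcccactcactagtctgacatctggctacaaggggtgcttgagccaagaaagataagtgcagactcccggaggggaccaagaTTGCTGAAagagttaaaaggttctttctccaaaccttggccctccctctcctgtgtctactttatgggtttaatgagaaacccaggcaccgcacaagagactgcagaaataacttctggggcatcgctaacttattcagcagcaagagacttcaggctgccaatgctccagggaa
Ogn (chr13:49607765-49608064, plus strand): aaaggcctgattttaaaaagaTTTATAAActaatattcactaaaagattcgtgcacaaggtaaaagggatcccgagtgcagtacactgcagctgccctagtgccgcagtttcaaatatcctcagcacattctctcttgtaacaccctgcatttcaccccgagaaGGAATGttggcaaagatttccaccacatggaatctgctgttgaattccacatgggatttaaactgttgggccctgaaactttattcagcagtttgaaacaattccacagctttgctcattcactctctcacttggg
Omd (chr13:49582212-49582511, plus strand): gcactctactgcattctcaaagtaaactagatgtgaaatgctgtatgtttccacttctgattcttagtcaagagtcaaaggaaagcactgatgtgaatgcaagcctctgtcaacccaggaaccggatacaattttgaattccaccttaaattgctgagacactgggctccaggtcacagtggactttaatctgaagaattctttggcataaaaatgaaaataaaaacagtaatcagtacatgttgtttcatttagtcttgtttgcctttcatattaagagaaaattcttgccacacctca
Aspn (chr13:49544193-49544492, plus strand): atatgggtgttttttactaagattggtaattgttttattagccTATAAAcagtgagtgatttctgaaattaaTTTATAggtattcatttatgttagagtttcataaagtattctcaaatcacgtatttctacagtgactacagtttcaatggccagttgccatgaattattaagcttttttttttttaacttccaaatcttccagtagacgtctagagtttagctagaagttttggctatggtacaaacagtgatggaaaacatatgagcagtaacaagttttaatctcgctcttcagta

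The windows differ in base composition. G and C made up 63.7% of the biglycan and 77.0% of the podocan window, 55.3% of the Prelp window, 51.0% of the fibromodulin, 42.3% of the osteoglycin, 37.7% of the osteomodulin and 31.0% of the asporin window. Of these 7, the 2 that rose in 4T1 medium had the highest values and the 4 that fell the lowest, while decorin, which had the largest rise of the family, is not among them. Over 32851 windows the median was 52.7%, and the asporin window was above 1.3% of them, the podocan window above 97.6%. Across all tested genes with a window the same split was not seen, with a median of 61.7% for 2187 genes higher and 61.0% for 2056 genes lower in 4T1 than in control medium. With 7 genes of 1 family this is a description, and of the 2 podocan windows only the outer was used. GC boxes were found in the biglycan and podocan windows (35.7% of all windows hold one), and TATAAA in those of osteoglycin and asporin (13.6%). The TATAAA matches began at -229 and -227 from the start in osteoglycin and at -207 and -178 in asporin. Whether they act as TATA boxes was not tested. A TEAD match was in the osteoglycin window (14.7%) and a C/EBP match in that of fibromodulin (10.8%). The matches within the osteoglycin TATA stretch overlap each other, as do a pair of GC boxes of biglycan. AP-1, STAT, interferon response element, kappaB and CArG letters, present in 7.81, 8.3, 3.44, 8.46 and 1.63% of all windows, were in 0 of the 7 windows.

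**Figure D4:**
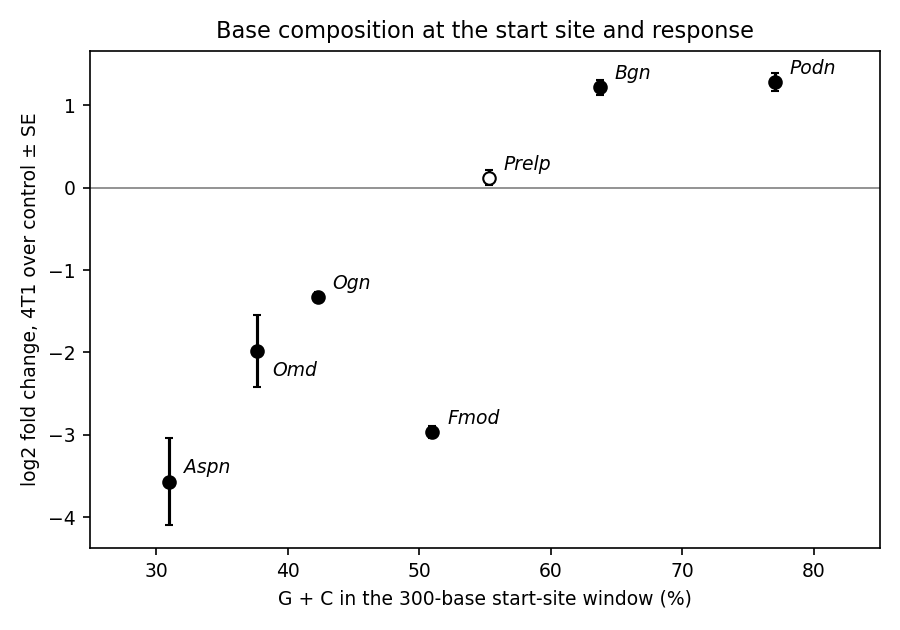
G and C content of the 300-base start-site window (percent, x axis) against the log2 fold change in 4T1 over control medium with its standard error (y axis) for 7 genes, filled where the adjusted p is under 0.05. Bgn and Podn lie to the upper right, and Aspn, Omd, Ogn and Fmod below 0 at lower content.

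The remaining family genes, 9 in number, were mostly scarce. Tsku, which encodes tsukushi, a secreted inhibitor of BMP signalling, was the exception, with 55.4 and 62.0 CPM in 4T1 medium, 30.6 and 28.2 CPM in 67NR medium and 24.9 and 22.0 CPM in control medium. It rose in 4T1 against control medium (log2 1.32, SE 0.09, edgeR adjusted p = 1.77e-07), in the direction of decorin, biglycan and podocan. Of 6 tested genes of this group, 1 was higher and 0 were lower in 4T1 against control (16.7% passed, against 39.1% of all tested genes), and 4 were higher and 0 lower in 67NR against control (66.7% passed, against 27.6%). The 4 were Ecm2 (log2 1.18), Epyc (log2 1.25), Podnl1 (log2 0.40) and Tsku (log2 0.32). Kera, the cornea gene next to lumican, had 2 and 11 counts in 67NR medium and 0 in the other 4 libraries, and with Chad and Nyx it was too low to test. Optc and Chadl did not pass in the 3 comparisons.

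Genes of the pathway around the 9 were read against all tested genes, of which 39.1% passed in 4T1 against control and 27.6% in 67NR against control. Of 21 tested genes of chondroitin and dermatan sulfate synthesis, 5 were higher and 6 lower in 4T1 than in control medium (52.4% passed, median log2 -0.00), and 5 were higher and 2 lower in 67NR than in control medium (33.3% passed, near the share of all genes, median 0.08). Chst11, a chondroitin 4-O-sulfotransferase, rose to 46.4 and 59.2 CPM in 4T1 medium, against 16.3 and 13.2 CPM in control medium, with 23.6 and 21.8 CPM in 67NR medium (log2 1.83 for 4T1 against control, SE 0.13, edgeR adjusted p = 1.58e-07). Pxylp1, the phosphatase that acts on the linker xylose, rose as well (log2 1.50), whereas Chst12, another 4-O-sulfotransferase, fell (log2 -0.66). The dermatan sulfate epimerase Dse fell by 0.25 on the log2 scale in 4T1 against control medium. Of 8 tested genes of keratan sulfate synthesis, 3 were higher and 1 lower in 4T1 than in control medium, and 4 were higher and 0 lower in 67NR than in control medium, so that 4 of 8 passed in each comparison. The galactosyltransferase B4galt1 rose by 1.15 and the galactose 6-O-sulfotransferase Chst1 by 0.73 on the log2 scale in 4T1 against control medium. Chst2, a sulfotransferase of N-acetylglucosamine, was lower in 4T1 (log2 -0.24) and higher in 67NR (log2 0.47) than in control medium. Of the members named above as keratan sulfate proteoglycans, fibromodulin and osteomodulin fell in 4T1 medium and lumican did not pass (log2 0.11). Of these 8 synthesis genes 3 rose and 1 fell there.

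The collagen list held 14 chains of fibrils, of the fibril surface and of type VI microfibrils. Against control medium, 4 were higher and 10 lower in 4T1 medium (100.0% passed, median log2 -0.73). In 67NR medium 5 were higher and 5 lower (71.4% passed, median 0.14). The type VI chains Col6a1 and Col6a2 were among those higher in both comparisons, and Col6a3 among those higher in 67NR medium. Col12a1, a fibril-associated chain, stood at 195 and 270.1 CPM in 4T1 medium, 694 and 931 CPM in 67NR medium and 1237 and 1318 CPM in control medium. It fell in both tumour media, unlike fibromodulin and osteoglycin, which fell in 4T1 medium and rose in 67NR medium. Col6a3, a chain of beaded microfibrils that bind biglycan and decorin, was at 1.62 and 2.89 CPM in 4T1 medium, 22.2 and 23.6 CPM in 67NR medium and 6.65 and 3.57 CPM in control medium (log2 -1.19 for 4T1 and 2.11 for 67NR against control). The partner chains Col6a1 and Col6a2 were far more abundant and were higher in both tumour media. Col6a1 stood at 1716 and 1821 CPM in 4T1 medium, 2958 and 2832 CPM in 67NR medium and 1471 and 1394 CPM in control medium (log2 0.30 for 4T1 against control), and Col6a2 had log2 fold changes of 0.20 for 4T1 and 1.13 for 67NR against control. Another list held proteases that process or cleave these proteoglycans and the procollagen C-proteinase enhancers Pcolce and Pcolce2. Of its 12 tested genes, 5 were higher and 2 lower in 4T1 than in control medium (58.3% passed). The 2 lower were the enhancers Pcolce (log2 -0.39) and Pcolce2. In 67NR against control medium 7 were higher, both enhancers among them, and 1 was lower (66.7% passed). Tll1, a tolloid protease of the family that trims the biglycan propeptide, rose to 33.7 and 34.1 CPM in 4T1 medium, against 12.5 and 12.5 CPM in control medium (log2 1.44, SE 0.09, edgeR adjusted p = 7.24e-08). Pcolce2, a procollagen C-proteinase enhancer, fell to 7.16 and 5.94 CPM in 4T1 medium, against 23.4 and 24.2 CPM in control medium (log2 -1.87), and was higher in 67NR medium at 37.3 and 34.7 CPM (log2 0.60). The aggrecanase Adamts4 rose in 4T1 (log2 0.97) and in 67NR medium (log2 0.68).

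Of 21 tested growth factors and receptors that the family binds, 7 were higher and 9 lower in 4T1 than in control medium (76.2% passed, median log2 0.07), and 7 were higher and 3 lower in 67NR than in control medium (47.6% passed, median 0.12). Tgfb2, Tgfb3 and Tgfbr2 were lower in 4T1 and higher in 67NR than in control medium, as fibromodulin was, but Tgfb1 and Tgfbr1 were higher in 4T1 than in control medium (log2 0.49 for Tgfb1, edgeR adjusted p = 0.00282, and 0.58 for Tgfbr1, adjusted p = 0.000418). Tgfb2 stood at 42.2 and 46.0 CPM in 4T1 medium, 145 and 143 CPM in 67NR medium and 108 and 119 CPM in control medium, with log2 fold changes against control of -1.36 in 4T1 and 0.35 in 67NR medium. The receptor Tgfbr2 stood at 83.7 and 104 CPM in 4T1 medium, 259 and 271 CPM in 67NR medium and 168 and 167 CPM in control medium (log2 -0.83 for 4T1 and 0.66 for 67NR against control). Betaglycan, the co-receptor Tgfbr3, rose in both (log2 1.19 in 4T1 and 0.67 in 67NR medium), in the direction of decorin. Of the receptors for soluble biglycan and decorin, Tlr4 rose in 4T1 medium (log2 0.74). Tlr2 stood at 69.0 and 62.7 CPM in 4T1 medium and 63.0 and 62.5 CPM in control medium and did not pass (log2 0.07, edgeR adjusted p = 0.502). Cd14, named above as a partner of lumican, rose more in 4T1 against control medium (log2 3.24, SE 0.21, edgeR adjusted p = 5.86e-08). It had 188 and 255 counts in 4T1 medium, 18 and 23 in 67NR medium and 31 and 15 in control medium. Among called genes of this list with at least 10 CPM in the higher medium, Cd14 changed most in that comparison. For 67NR against control it did not pass (log2 -0.52, edgeR adjusted p = 0.239).

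**Figure D5:**
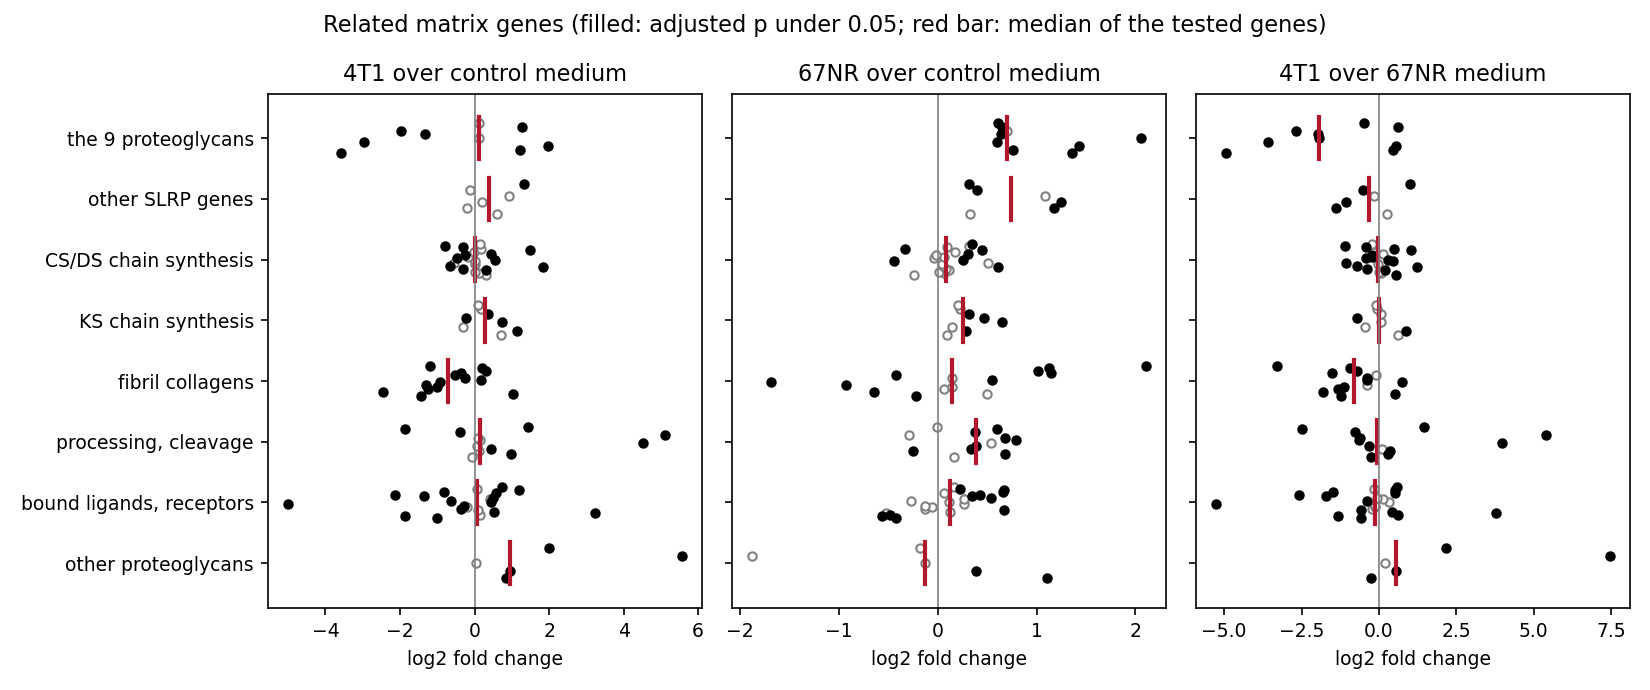
Log2 fold changes of the 9 genes and of 7 groups of related matrix genes (rows, tested genes) in 4T1 over control, 67NR over control and 4T1 over 67NR medium, filled where the adjusted p is under 0.05, with a red bar at each median. In 4T1 over control medium the row of fibril collagens, which includes type VI chains, has a median of -0.73. The chondroitin and dermatan sulfate genes scatter around 0 there.

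The genes most like each member were taken from 9825 tested genes of at least 10 CPM on average, by the Euclidean distance between log2 CPM values centred over the 6 libraries. Within the family biglycan and podocan were the closest pair (distance 0.23), followed by osteoglycin and osteomodulin (0.48). Decorin and fibromodulin were farthest apart (5.26). The 0.5 added to each CPM exceeds both 4T1 values of asporin (0.338 and 0.0545 CPM) and osteomodulin (0.473 and 0.272 CPM). That offset flattens their falls, so the ranks of pairs with these scarce genes may depend on it. Decorin and asporin were at 4.45, although their log2 fold changes in 4T1 against control medium were 1.97 and -3.57, with -2.97 for fibromodulin. Outside the family, fibromodulin was most like Postn (0.27), which encodes the matrix protein periostin, then Tmem158 and the growth factor Igf1 (0.46). Postn was at 63.7 and 61.9 CPM in 4T1 medium, 711 and 614 CPM in 67NR medium and 529 and 494 CPM in control medium. Decorin was most like the metalloprotease Adam12 (0.29), osteoglycin most like the integrin chain Itgb3 (0.14) and lumican most like Cpxm1 (0.38). Podocan was most like Azin2 (0.19), followed by Zfp36 (0.20) and Nfkbia (0.21). Biglycan was most like Man2a2 (0.14) and Prelp most like Firre (0.08). These distances share libraries and describe likeness across 3 media.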

How the data were processed

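The deposited values are whole-number read counts for each gene symbol, given with and without a filter by the authors. Subread and DESeq2 1.32.0 were used with mm10, per the submitters' processing notes, and libraries were directional per the labels' protocols. For aligner and strand settings, nothing is given in the sources used here. The unfiltered counts were used. The filtered table holds the same values for 14629 genes. Groups follow the sample titles.

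Scaling was by TMM after a low-count filter (edgeR 4.0.16, filterByExpr with at least 10 counts, 15 in total). A quasi-likelihood fit of all 6 libraries (prior count 0.125) gave the 3 comparisons, with Benjamini-Hochberg adjustment over 15055 genes and 0.05 as threshold. Each standard error is the log2 fold change over the square root of F, and intervals are at 95%. CPM uses TMM-scaled totals of tested genes. Likeness used log2(CPM + 0.5). Positions and lengths come from GENCODE M21 (GRCm38, the assembly of mm10), and start-site windows from RefSeq. Podocan had 2 windows, of which the one at the outer RefSeq start was used. That window lies inside the GENCODE span of the gene, which reaches to 108096445. Positions span whole genes, exons and introns.

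The 9 genes and the lists were chosen with earlier results of these data known. The rule for named genes took all 9 members, all other family genes, up to 3 called genes per list and comparison with the largest changes and at least 10 CPM in the higher medium, and 3 most alike genes per member, of which the text gives some. Acan, Dse, Col1a1, Col6a1, Col6a2, Sox9, Tgfb1, Tgfbr1, Tlr2 and Tlr4 were named outside that rule after their values were seen. Alternatives were DESeq2 size factors, library totals, no filter, the filtered genes, a replicate block, each library left out, fits of the compared media, DESeq2 1.42.0 and limma-voom (limma 3.58.1). The length alternatives were chosen after seeing the data. The labels state no pairing by replicate number, and the main fit used none. The code was tested on simulated data. Software was R 4.3.3, Python 3.11.15 and matplotlib 3.10.9.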

Additional observations from a re-analysis of the deposited data

Results flagged for a closer look

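Against control medium, the effects of the tumour media had opposite signs for Fmod, Ogn, Aspn and Omd among the 9 genes. The difference between the media passed its own test for each (edgeR quasi-likelihood, 4T1 against 67NR medium). Of all tested genes 43.4% passed that test, and the share that also had opposite signs was not counted. Both effects use the same control libraries. The log2 difference was -3.57 for Fmod (adjusted p = 1.81e-12), with -2.97 in 4T1 and 0.60 in 67NR medium against control. It was -1.97 for Ogn (adjusted p = 1.05e-10), with -1.33 in 4T1 and 0.64 in 67NR medium. For Aspn it was -4.93 (adjusted p = 1.01e-06), with -3.57 in 4T1 and 1.36 in 67NR medium. For Omd it was -2.68 (adjusted p = 0.000101), with -1.98 in 4T1 and 0.70 in 67NR medium, of which the second did not pass.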

How the results depend on the processing

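Of 27 log2 fold changes (9 genes in 3 comparisons), 25 kept direction and side of the threshold under all 14 alternatives. The exceptions were Lum in 4T1 against control medium, which was -0.0089 without 4T1 replicate 1, ran between -0.10 without control replicate 2 and 0.44 without control replicate 1, and passed under none of the alternatives, and Prelp in the same comparison, which was -0.022 without 4T1 replicate 2 and passed without 4T1 replicate 1 (0.24). The cause was not tested. Counts of the 9 genes higher or lower were the same under every alternative, except 3 to 4 higher in 4T1 against control. Counts over all genes moved by more than 1.5 times with 1 library left out. Main against lowest and highest were 2995 against 1891 and 2931 genes higher for 4T1 against control (lowest without control replicate 1), and 1951 against 1043 and 2497 higher and 2199 against 1184 and 2840 lower for 67NR against control, with both lowest values without 67NR replicate 1. A lone library is assumed there to vary like the other groups, and fewer libraries enter the fit. Deviations of same-numbered libraries correlated at 0.0685, 0.00508 and -0.0406, so no shared effect of the number was seen. Whether same-numbered libraries were handled together is not stated. With the replicate number as a block, 3 genes of the family were higher and 4 lower in 4T1 against control medium, and 3091 of all genes were higher. Depth limits Aspn, Omd and Lum, with as few as 1, 5 and 19 counts in a library.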

Other observations

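Of 5 tested large or pericellular proteoglycan genes, 4 were higher and 0 lower in 4T1 than in control medium, where 19.9% of all tested genes were higher and 19.2% lower. Vcan, which encodes versican, the hyaluronan-binding proteoglycan of loose matrix, had 602 and 796 CPM in 4T1 medium, 146 and 165 CPM in 67NR medium and 175 and 177 CPM in control medium (log2 1.99 for 4T1 against control, SE 0.11, edgeR quasi-likelihood adjusted p = 1.57e-08). Prg4, the lubricin gene, had 238 and 362 counts in 4T1 medium, 2 and 2 in 67NR medium and 5 and 7 in control medium (log2 5.58 for 4T1 against control, SE 0.26). Acan, the aggrecan gene of cartilage, had 0 counts in all 6 libraries.

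The 2 chains of type I collagen, the main fibril partner of this family, stood far apart. Per kb of principal transcript, Col1a1 had 1133 and 1198 CPM in 4T1 medium, 2633 and 2500.1 CPM in 67NR medium and 2378 and 2283 CPM in control medium. Col1a2 had 0.973 and 1.02 CPM per kb in 4T1 medium, 1.51 and 1.09 CPM per kb in 67NR medium and 2.1 and 2.93 CPM per kb in control medium. These are levels as counted in this table: the annotation behind the counting is not named in the sources used here, and whether the low Col1a2 counts belong to the cells was not tested.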
